A study of Mus musculus with 18 samples.

Results

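Thy1+ cells from the hearts of mice that received isoproterenol were compared with those of saline controls, over all genes and over the strains C57BL/6, C3H/HeJ and KK/HlJ at once. Isoproterenol (ISO) is an agonist of beta-adrenergic receptors and was delivered, like the saline, from implanted pumps. The comparison holds all 18 libraries of the series: 12 of ISO hearts, 6 at day 14 and 6 at day 21, and 6 of saline (sham) hearts. Strain, treatment and day make 9 groups, each with 2 libraries. The sham labels carry no day, so the same sham libraries stand against both days. The sorted population is labelled Thy1+ HE or Thy1+HE-, and HE is not spelled out. Poly(A) RNA was sequenced as single-end reads with a kit described as stranded. The labels give no genotype beyond the strain and do not say whether the libraries of a group came from separate animals or pools. The p-values therefore measure the spread between libraries, which may be technical.

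Cardiac fibroblasts build and maintain the collagen network of the heart. Under sustained beta-adrenergic stimulation the heart is known to enlarge and scar, and fibroblasts near stressed muscle switch on matricellular proteins, a class of secreted proteins that sit in the matrix and change how cells attach and signal. Transforming growth factor beta, stored in the matrix on latent binding proteins, and Wnt ligands, held in check by secreted antagonists, are known regulators of that state.

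Totals ran from 7230741 to 26280685 counts. Fibroblast genes were abundant in every library. The 10 fibroblast markers, all detected, summed to between 93190 and 124600 CPM, the counts scaled to a common library size, in sham. In ISO they summed to between 81320 and 122700 CPM. Gsn alone stood at 55200 to 98000 CPM across the libraries, so the sums mostly follow that gene. Of these markers, Pdgfra, a receptor of resident fibroblasts, stood at 522 ± 178 CPM in sham (SD, n = 6) and 608 ± 179 CPM in ISO (n = 12). Thy1 itself, the sorting antigen, stood at 384 ± 89.1 and 306 ± 67.9 CPM. Adrb1, the main beta-adrenergic receptor of heart muscle, was at or near 0 reads in most libraries, with medians of 0 CPM in sham and 0.0346 CPM in ISO. The first replicates of the KK/HlJ ISO libraries at day 14 and at day 21, of the KK/HlJ sham libraries and of the C3H/HeJ sham libraries stood apart: their median correlation with the other libraries was 0.689 to 0.739 in log2 CPM, against 0.795 to 0.889 for the 14 others. They are called the 4 divergent libraries below.

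ISO raised 10 genes and lowered 1 when both days and all strains were fitted together. With 15762 genes tested in a model of strain plus treatment, 0.0698% of all genes passed a Benjamini-Hochberg adjusted p of 0.05 in edgeR's quasi-likelihood test (0.0634% higher and 0.00634% lower). All 11 had the same sign in each strain, which a fit over the pooled strains favours. The 9 genes of strongest evidence encode secreted or matrix-bound proteins, apart from Itgbl1, an integrin-like gene whose product is also secreted: Postn, Ltbp2, Cilp, Pamr1, Sfrp2, Prg4, Dkk3, Ccn5 and Itgbl1. Their log2 fold changes ran from 1.08 (Dkk3) to 2.19 (Postn). Postn, the matricellular protein periostin, lay at 237, 335 and 448 CPM as lowest, median and highest of 6 sham libraries and at 732, 1499 and 2373 CPM over 12 ISO libraries, with no overlap. Cilp and Pamr1 did not overlap either. In Ltbp2, Sfrp2, Prg4 and Dkk3 1 of 12 ISO libraries lay within the sham range, and in Ccn5 and Itgbl1 2 did.

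Comp, cartilage oligomeric matrix protein, which bridges collagen fibres, was the 10th gene to rise. Its lowest, median and highest levels were 95.6, 154 and 223 CPM in sham and 176, 355 and 506 CPM in ISO. Of the 12 ISO libraries, 9 lay above all sham libraries, and each of the 12 lay above both sham libraries of its own strain. The log2 fold change was 1.14 (SE 0.221; edgeR adjusted p = 0.031). KK/HlJ gave the highest strain value, 1.5, followed by C3H/HeJ with 1.15 and C57BL/6 with 0.79. The gene lies on mm10 at chromosome 8, 70373558 to 70382066. On the same 15762 genes, an alternative added after seeing the data, the call held in 6 of 18 fits that each left out 1 library (adjusted p up to 0.114). It held without replicate 1 of C57BL/6 at either day, replicate 1 at day 14 or replicate 2 at day 21 of C3H/HeJ, or replicate 1 of KK/HlJ sham or of KK/HlJ at day 21, and was lost without any of the 12 others. With the default filter, which let 17794 to 18017 genes in when a group kept 1 library, it held in 13 of 18 (up to 0.101). It was also lost with a minimum of 5 CPM, in a model of the 9 groups and without the 4 divergent libraries.

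Sept4, a septin GTPase of the cytoskeleton, was the 1 gene that fell. Sham libraries ran from 75.8 through a median of 132 to 145 CPM, and ISO libraries from 46.1 through 54.1 to 89.3 CPM. All 4 ISO libraries of each strain lay below both sham libraries of that strain, and 10 of 12 lay below every sham library. It fell by 0.94 on the log2 scale (SE 0.184; edgeR adjusted p = 0.031), with -1.34 in C3H/HeJ, -0.99 in C57BL/6 and -0.45 in KK/HlJ. The KK/HlJ sham libraries, at 75.8 and 84.7 CPM, were already below those of C57BL/6 (145 and 126 CPM) and C3H/HeJ (140 and 138 CPM). Sept4 lies on chromosome 11, 87568903 to 87590539. The call held in 8 of 18 fits that each left out 1 library and tested the same genes (adjusted p up to 0.132), and with the default filter in the same 8 (up to 0.137). It was lost without either C57BL/6 sham library, replicate 1 of C57BL/6 at day 14, any of the 6 C3H/HeJ libraries or replicate 2 of KK/HlJ at day 14. With the level of pericyte and smooth muscle markers as a covariate, also added after seeing the data, Sept4 stood at -0.85 with an adjusted p of 0.0841. The call was lost too with offsets for transcript length and GC content (-0.82, adjusted p = 0.0591) and in the model of the 9 groups.

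**Figure D1:**
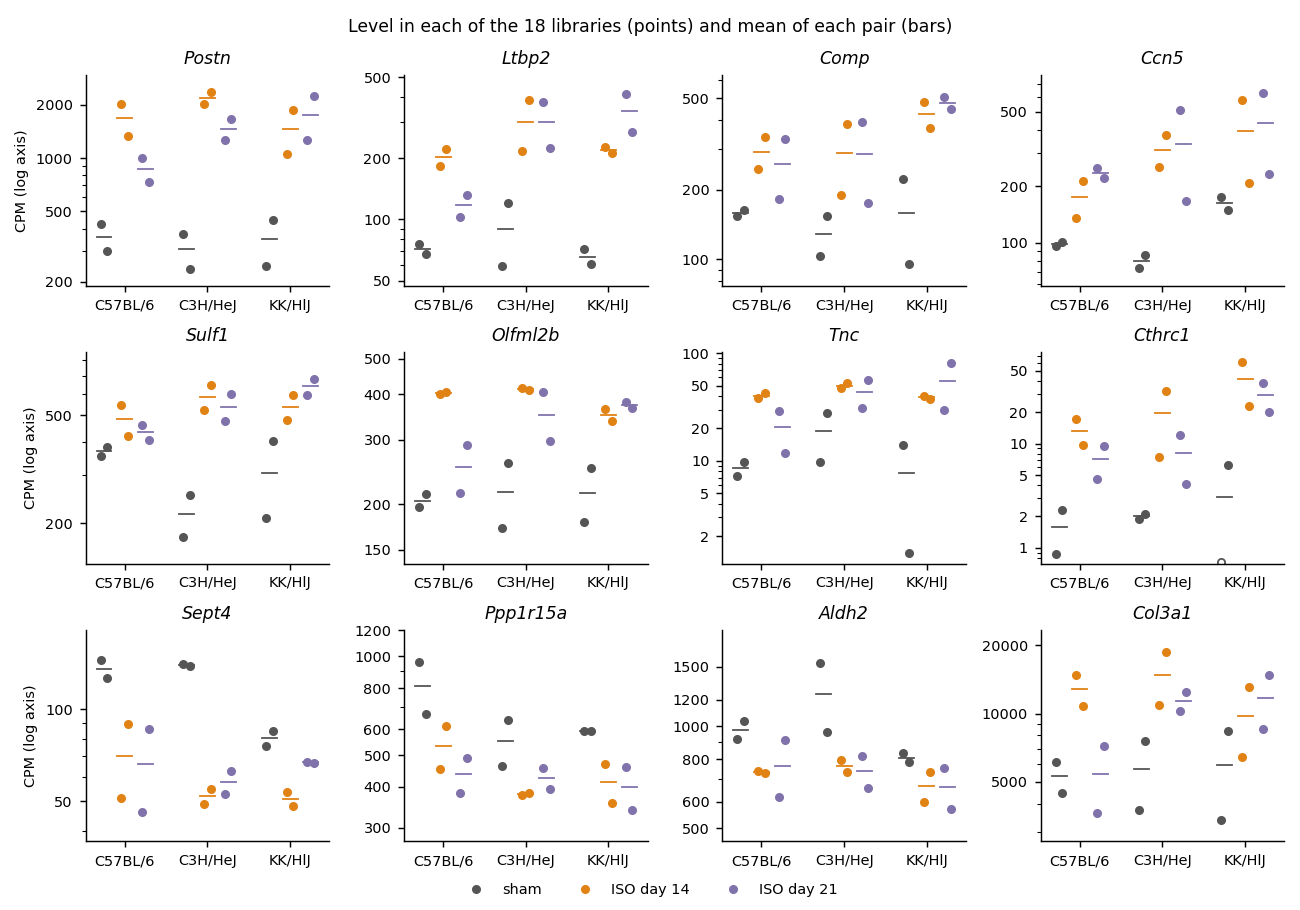
Levels of 12 genes in CPM on a log axis, by strain, with sham in grey, ISO day 14 in orange and ISO day 21 in purple; points are libraries, bars are the mean of 2, and an open point marks a library at 0. Every ISO point of Postn, Comp, Sulf1, Olfml2b, Tnc and Cthrc1 lies above both sham points of its strain, every ISO point of Sept4, Ppp1r15a and Aldh2 lies below them, and Col3a1 overlaps in C57BL/6 and KK/HlJ.

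The count of calls moved with the tool and the filter, while RLE scaling also gave 11. DESeq2 called 67 genes, 41 of them higher. Limma with library quality weights called 41, 20 of them higher. With no filter on low counts edgeR called 84, 56 of them higher. Leaving out the 4 divergent libraries gave 24 on the same genes (13 higher, 11 lower) and 26 with the default filter (14 and 12), which then let in 17629. The 11 genes were called by all of these apart from Dkk3, Ccn5 and Comp, which were not called without the divergent libraries on either set of genes. The model of the 9 groups lost Ccn5, Itgbl1, Comp and Sept4, and a fit without the strain term lost Ccn5. Leaving out 1 library gave 7 to 16 calls on the same genes, with 7 without replicate 1 of the C57BL/6 sham pair or of the C3H/HeJ sham pair. At an unadjusted p under 0.05 stood 1085 genes or 6.88%, of which 601 were higher (3.81%) and 484 lower (3.07%).

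A second view that uses no model asked which genes separated in every strain, with all 4 ISO libraries above, or all below, both sham libraries. In the ISO direction 16 genes did so (0.102% of all tested) and in the sham direction 13 (0.0825%). Of the 16, 8 were called: Postn, Ltbp2, Cilp, Pamr1, Sfrp2, Prg4, Ccn5 and Comp. The other 8 did not pass the adjusted test. They were Sulf1, Olfml2b, Cthrc1, Tnc, 1500015O10Rik, Itih5, Thbs4 and Klhl5, named after their values were seen. Their log2 fold changes ran from 0.75 to 2.98.

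Sulf1, a secreted sulfatase that trims heparan sulfate and so changes growth factor binding, lay between 177 and 402 CPM in sham (median 304) and between 404 and 683 CPM in ISO (median 535). The groups did not overlap, and the log2 fold change was 0.86 (SE 0.183; edgeR adjusted p = 0.0758). Olfml2b, a matrix protein of the olfactomedin family, lay between 172 and 259 CPM in sham and between 215 and 416 CPM in ISO, with medians of 205 and 373 CPM. Its strain values were nearly alike, 0.83 in C3H/HeJ, 0.75 in KK/HlJ and 0.68 in C57BL/6, with an adjusted p of 0.0758. DESeq2 and limma with quality weights both called these 2 genes (adjusted p of 0.000452 and 0.0319 for Sulf1, 0.000392 and 0.0472 for Olfml2b). In edgeR without the 4 divergent libraries, with the default filter, their log2 fold changes were smaller, at 0.61 and 0.60.

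Cthrc1, a secreted collagen triple helix protein of injured tissue, was nearly silent in sham. The sham libraries held 0, 0.879, 1.89, 2.11, 2.29 and 6.19 CPM, and the ISO libraries ran from 4.08 through a median of 14.7 to 60.5 CPM. All 4 KK/HlJ ISO libraries were at 20.1 CPM or more. The fitted log2 fold change was 2.98 (SE 0.644, edgeR adjusted p = 0.0758), from few sham reads, with 1 sham library at 0. DESeq2 gave 2.99, limma with quality weights 2.90 and edgeR without the 4 divergent libraries, with the default filter, 2.46. Tnc, the matricellular protein tenascin C, ran from 1.39 to 28.1 CPM in sham and from 11.8 to 81.5 CPM in ISO (log2 fold change 1.88, SE 0.405, adjusted p = 0.0758). Thbs4, a thrombospondin of tendon and stressed heart, ran from 0 to 22 CPM in sham and from 27.2 to 241.8 CPM in ISO. The groups of Thbs4 did not overlap, the KK/HlJ ISO libraries were the highest (113 to 241.8 CPM), and edgeR's adjusted p was 0.203. DESeq2, limma with quality weights and edgeR without the 4 divergent libraries on the same genes called it (adjusted p of 0.00464, 0.0129 and 0.0128).

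Of the 13 genes that separated downwards, edgeR called Sept4 alone. Ppp1r15a, a regulatory subunit of the phosphatase that reverses the translational arrest of the stress response, had lowest, median and highest levels of 464, 617 and 961 CPM in sham and 341, 424 and 614 CPM in ISO. Its log2 fold change was -0.58 (SE 0.144; edgeR adjusted p = 0.168), and limma with quality weights, DESeq2 and the edgeR fit without the 4 divergent libraries on the same genes called it (adjusted p of 0.0134, 0.00645 and 0.0407). Aldh2, the mitochondrial aldehyde dehydrogenase, averaged 1013 ± 275 CPM in sham (SD, n = 6) and 722 ± 97.6 CPM in ISO (n = 12). Ldhb, a subunit of lactate dehydrogenase, averaged 50.1 ± 8.25 and 27.9 ± 7.87 CPM. Smox, spermine oxidase, averaged 82.7 ± 16.6 and 52.6 ± 12.9 CPM. Apart from Ldhb and Sept4 these genes were named after their values were seen. The log2 fold changes of the 13 ran from -0.38 (Lemd2) to -2.26 (Blnk).

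The promoters of these genes were read to see whether they share response elements. RefSeq windows on GRCm38.p6, from 250 bases before to 50 after the start, matched 11567 of the 15762 genes, among them 5 of 10 genes that rose and Sept4. The motifs, searched on both strands, were the core TGACGTC of the cAMP response element (CRE), its half-site TGACG, which the core contains, the AP-1 site TGANTCA and the TEAD site GGAATG. Over all genes tested, 5.43%, 30.6%, 5.01% and 12.4% of windows held them. None of the 4 was found in the windows of the 5 genes that rose (Postn, Ltbp2, Cilp, Sfrp2 and Itgbl1) or in that of Sept4, whose matched start lies 2214 bases from the GENCODE start. Of the 29 separated genes, 10 higher and 11 lower ones had a window, and 1 of these windows held the full CRE core: Ppp1r15a, a gene on the lower side. The 150 bases before the start are printed for the 4 strongest genes with a window, to show what they have in common with the matrix gene Olfml2b and with Ppp1r15a, with CRE letters in capitals.
Postn (chr3:54360957-54361106, + strand): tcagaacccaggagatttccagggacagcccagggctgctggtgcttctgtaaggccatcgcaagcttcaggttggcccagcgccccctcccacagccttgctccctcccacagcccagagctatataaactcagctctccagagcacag
Ltbp2 (chr12:84876492-84876641, - strand): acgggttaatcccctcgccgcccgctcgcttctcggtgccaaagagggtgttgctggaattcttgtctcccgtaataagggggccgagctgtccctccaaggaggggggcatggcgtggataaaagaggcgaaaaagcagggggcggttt
Cilp (chr9:65265030-65265179, + strand): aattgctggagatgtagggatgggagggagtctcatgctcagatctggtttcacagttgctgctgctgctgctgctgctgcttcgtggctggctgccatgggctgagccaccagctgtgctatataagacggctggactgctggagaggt
Sfrp2 (chr3:83766171-83766320, + strand): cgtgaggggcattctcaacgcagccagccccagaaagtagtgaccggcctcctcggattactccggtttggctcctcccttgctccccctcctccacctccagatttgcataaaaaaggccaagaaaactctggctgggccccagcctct
Olfml2b (chr1:170644382-170644531, + strand): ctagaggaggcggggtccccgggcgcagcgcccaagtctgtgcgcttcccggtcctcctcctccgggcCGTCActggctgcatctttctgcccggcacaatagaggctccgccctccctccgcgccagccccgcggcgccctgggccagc
Ppp1r15a (chr7:45526269-45526418, - strand): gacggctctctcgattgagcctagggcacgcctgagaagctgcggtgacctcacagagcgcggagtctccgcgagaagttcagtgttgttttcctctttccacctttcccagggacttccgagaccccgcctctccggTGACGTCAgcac

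In Ppp1r15a the half-sites of both strands overlap into the palindrome shown in capitals, close to the start. In Olfml2b a single half-site lies on the opposite strand. Over larger sets the shares stayed near or under those of all genes. Of the 360 genes higher at an unadjusted p under 0.05 and at least 5 CPM, 282 had a window, and 24.5% of these held the CRE half-site, 3.19% its core, 3.55% the AP-1 site and 11.7% the TEAD site. Of the 374 lower genes, 287 had a window, with 28.6%, 5.92%, 5.23% and 10.5%. A match of letters is a description and not a binding site.

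Of 35 genes on a list of matricellular and activated fibroblast genes, 9 rose and none fell, 33 had a log2 fold change above 0, and the median was 1.10, against 0.027 and 52.4% above 0 over all genes tested. The list was drawn up with results of these data known and holds 8 of the 9 strongest genes. Without those, the other 27 had a median of 0.62, with 25 above 0 and 12 higher at an unadjusted p under 0.05. Over all genes tested, 3.81% were higher and 3.07% lower at that p, the shares to set beside such counts in every list below. Of the 27, 4 were named after their values were seen. Fn1, the adhesive glycoprotein fibronectin, averaged 545 ± 238 CPM in sham and 1263 ± 437 CPM in ISO. Ccn2, a matricellular protein induced by TGF-beta and stretch, averaged 415 ± 196 and 914 ± 497 CPM, and every ISO library lay above the mean of its strain's sham libraries. Neither passed the adjusted test (edgeR adjusted p of 0.122 and 0.307), and DESeq2 called both (0.000725 and 0.00716). Limma with quality weights called Ccn2 (adjusted p = 0.0442) but not Fn1 (adjusted p = 0.0917). Fap, a surface protease of activated fibroblasts, and Ccn1, a relative of Ccn2, had log2 fold changes of -0.06 and -0.04. In each of the 12 ISO libraries the median over the 35 members lay above the mean of the strain's sham pair, by 0.46 to 1.12 on the log2 scale, and that over the 27 others by 0.24 to 1.10. These members were listed with results of the same libraries known.

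Collagens stood higher by less, and none passed the test. Of 11 fibrillar collagens 9 were above 0 with a median of 0.72, 0.47 in a fit of only the day 21 and sham libraries, and 0.40 over the 7 members of at least 5 CPM, and 4 were higher at an unadjusted p under 0.05. Col3a1, the type III chain, had lowest, median and highest levels of 3403, 5296 and 8405 CPM in sham and 3636, 10850 and 18720 CPM in ISO. Of 12 ISO libraries 9 lay above all sham libraries, but in C57BL/6 and KK/HlJ the groups overlapped (log2 fold change 0.94, edgeR adjusted p = 0.434). DESeq2 called Col3a1 (adjusted p = 0.0218), and limma with quality weights did not (adjusted p = 0.228). Col1a1, the alpha 1 chain of type I collagen, overlapped more widely, at 2591 to 6739 CPM in sham and 2030 to 9360 CPM in ISO (log2 fold change 0.40, adjusted p = 0.67). Col5a2, which sets fibril diameter together with type I collagen, had a log2 fold change of 0.72 (adjusted p = 0.434).

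Collagens that sit on the surface of fibrils also stood higher without passing. Col12a1, a fibril-associated chain, had lowest, median and highest levels of 6.44, 16.3 and 27.9 CPM in sham and 19.1, 39.1 and 85.7 CPM in ISO. Col14a1, its relative, lay at 565, 732 and 1225 CPM in sham and 612, 1579 and 2136 CPM in ISO. Their log2 fold changes were 1.41 and 0.88 (edgeR adjusted p of 0.142 and 0.105), and limma with quality weights called Col14a1 (adjusted p = 0.0368). Over all 29 non-fibrillar collagens the median was 0.07, with 17 above 0 and 6 higher at an unadjusted p under 0.05. Of 33 genes that modify or crosslink collagen, 18 were above 0 and the median was 0.01. Within that list Plod2, the lysyl hydroxylase that makes hard-to-degrade crosslinks, had a log2 fold change of 1.16 and Lox, lysyl oxidase, 1.04, with adjusted p of 0.283 and 0.434.

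Elastic fibre genes and proteoglycans held 1 call each, Ltbp2 and Prg4. Of 25 elastic fibre and microfibril genes 18 were above 0 with a median of 0.16. At an unadjusted p under 0.05, 4 were higher and 1 lower, against 3.81% and 3.07% of all genes tested. Mfap4, a microfibril-associated glycoprotein, averaged 869 ± 274 CPM in sham and 1414 ± 423 CPM in ISO, and each ISO library lay above the mean of its strain's sham libraries (log2 fold change 0.71, adjusted p = 0.186). Of 31 proteoglycans 22 were above 0 with a median of 0.20, and 2 were higher and 2 lower at that p. Basement membrane glycoproteins, with 12 of 21 above 0, had a median of 0.03, as had all genes tested.

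**Figure D2:**
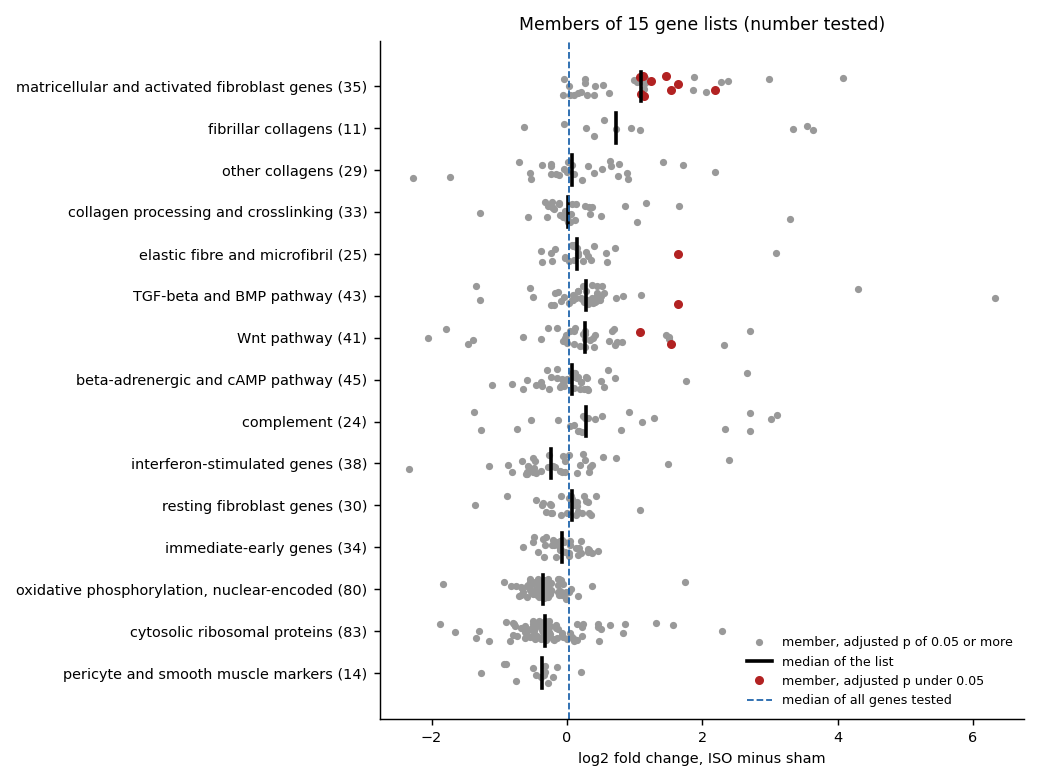
Log2 fold change of ISO minus sham for the tested members of 15 gene lists; grey points are members that did not pass, red points passed an adjusted p of 0.05, black bars are list medians and the dashed line is the median of all genes tested, 0.027. The matricellular list stands farthest right with a median of 1.10, and oxidative phosphorylation, ribosomal protein and pericyte genes lie left of the line.

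Genes of the TGF-beta and Wnt pathways were above 0 more often than all genes. Of 43 TGF-beta and BMP genes, 33 were above 0 with a median of 0.28. At an unadjusted p under 0.05, 9 were higher and none lower, against 3.81% and 3.07% of all genes tested. Only Ltbp2 was called. Tgfb3, a ligand of the pathway, averaged 193 ± 43.6 CPM in sham and 265 ± 36.1 CPM in ISO, and all 12 ISO libraries lay above the mean of their strain's sham libraries (log2 fold change 0.45, edgeR adjusted p = 0.622). The target genes Nrep and Tgfbi had log2 fold changes of 0.82 and 0.44 without passing.

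Of 41 Wnt pathway genes, 28 were above 0 with a median of 0.26, and secreted modulators led. Sfrp2 and Dkk3 rose. A further 3 members of the family of Sfrp2 stood higher without passing: Frzb (log2 fold change 0.81, edgeR adjusted p = 0.168), Sfrp1 (0.69, 0.203) and Sfrp4 (1.51, 0.366). Frzb ran from 67 through 84.4 to 202 CPM in sham and from 97.3 through 211 to 351.5 CPM in ISO. Sfrp4, scarce in sham at 2.12 to 19.4 CPM, reached 7.9 to 36.1 CPM in ISO. DESeq2 called all 3 (adjusted p from 0.00806 to 0.0237). Limma with quality weights called none of the 3 (adjusted p of 0.0818, 0.071 and 0.407).

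The pathway that ISO acts on had a median close to that of all genes. Of 45 beta-adrenergic and cAMP genes none was called, 26 were above 0, and the median was 0.08. Adcy6, an adenylyl cyclase that makes cAMP, averaged 158 ± 60.2 CPM in sham and 104 ± 21.1 CPM in ISO, and no ISO library exceeded the mean of its strain's sham libraries (log2 fold change -0.59, edgeR adjusted p = 0.616). The phosphodiesterases Pde1a and Pde8a, which break cAMP down, had log2 fold changes of 0.50 and 0.72 (adjusted p of 0.622 and 0.653). The receptor gene Adrb1 was at or under the floor of 3 reads in most libraries, too few to give a direction.

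Of 38 interferon-stimulated genes 12 were above 0, the median was -0.23, and none was called. At an unadjusted p under 0.05, 7 were lower and none higher, against 3.07% and 3.81% of all genes tested. Over the 32 members of at least 5 CPM the median was -0.33, with 8 above 0. Irf1, a transcription factor of the interferon response, averaged 397 ± 156 CPM in sham and 278 ± 63.3 CPM in ISO, and Ifi35, an interferon-induced protein, 99.2 ± 30.1 and 65.9 ± 15.8 CPM. In both, every ISO library lay below the mean of its strain's sham libraries (log2 fold changes of -0.48 and -0.58, edgeR adjusted p of 0.622 and 0.614). By library the list's median was above its strain's sham mean in 1 of 12 ISO libraries. By strain it was -0.37 in C3H/HeJ and -0.26 in C57BL/6 but -0.07 in KK/HlJ, whose 4 libraries lay between -0.10 and 0. Leaving out any 1 library kept the list's median between -0.39 and -0.14 on the same genes.

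Other signals were mixed. Il33, an alarmin released from stressed cells, averaged 70.8 ± 31.5 CPM in sham and 163 ± 77.8 CPM in ISO (log2 fold change 1.09, edgeR adjusted p = 0.225). Cxcl14, a chemokine of resting fibroblasts, averaged 444 ± 211 and 245 ± 142 CPM, with no ISO library above the mean of its strain's sham libraries (log2 fold change -0.83, adjusted p = 0.434). Serpina3n, a secreted protease inhibitor, averaged 186 ± 149 and 348 ± 163 CPM, and C3H/HeJ gave the largest strain value, 1.99. Of 24 complement genes, 19 were above 0 with a median of 0.29, but 11 of the 24 were under 5 CPM in both groups. Vtn, on that list and on the pericyte list, was far below 0 (log2 fold change -1.27, edgeR adjusted p = 0.0853). DESeq2 and limma with quality weights called it (adjusted p of 0.00176 and 0.00416).

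Resting fibroblast genes had a median close to that of all genes. Of 30 genes 18 were above 0 with a median of 0.07, and none was called. Tcf21, a transcription factor of cardiac fibroblasts, averaged 367 ± 63 CPM in sham and 347 ± 69.4 CPM in ISO (log2 fold change -0.08, edgeR adjusted p = 0.978). Within the list, 5 genes were lower and none higher at an unadjusted p under 0.05. Hsd11b1, which regenerates active glucocorticoid, had the lowest p of them: 105, 138 and 196 CPM as lowest, median and highest of sham, and 29, 73 and 138 CPM in ISO, with 11 of 12 ISO libraries below all sham libraries (log2 fold change -0.89, adjusted p = 0.147). Immediate-early genes, which report acute stimulation and handling of cells, had a median of -0.08, with 14 of 34 above 0. Klf2, a shear- and stress-responsive factor on that list, averaged 1082 ± 350.3 and 689.9 ± 209 CPM (edgeR adjusted p = 0.382). Acta2, smooth muscle actin, which marks myofibroblasts as well as smooth muscle, overlapped at 417 to 901 CPM in sham and 190.4 to 1112 CPM in ISO.

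Genes of energy production and translation were lower over the pooled libraries but not in every strain. Of 80 nuclear-encoded oxidative phosphorylation genes 5 were above 0 and the median was -0.35, and of 83 cytosolic ribosomal proteins 19 were above 0 with a median of -0.32. None was called by edgeR. At an unadjusted p under 0.05, 13 and 8 were lower and none higher, against 3.07% and 3.81% of all genes tested. Ndufa2, a subunit of complex I, averaged 113 ± 49.9 CPM in sham and 66.8 ± 25.6 CPM in ISO (log2 fold change -0.83, edgeR adjusted p = 0.362), with strain values of -1.36 in KK/HlJ, -1.07 in C3H/HeJ and 0.07 in C57BL/6. The median of oxidative phosphorylation was -0.67 in C3H/HeJ, -0.46 in KK/HlJ and 0.15 in C57BL/6, and that of ribosomal proteins was -0.44 in C3H/HeJ, -0.53 in KK/HlJ and 0.26 in C57BL/6. In C57BL/6 the ISO libraries of the 2 days lay on opposite sides: oxidative phosphorylation was at -0.37 and -0.17 at day 14 and at 0.24 and 0.54 at day 21. Without the 4 divergent libraries the medians were -0.09 and 0.02, and with offsets for the length and GC content of transcripts -0.12 and -0.11.

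**Figure D3:**
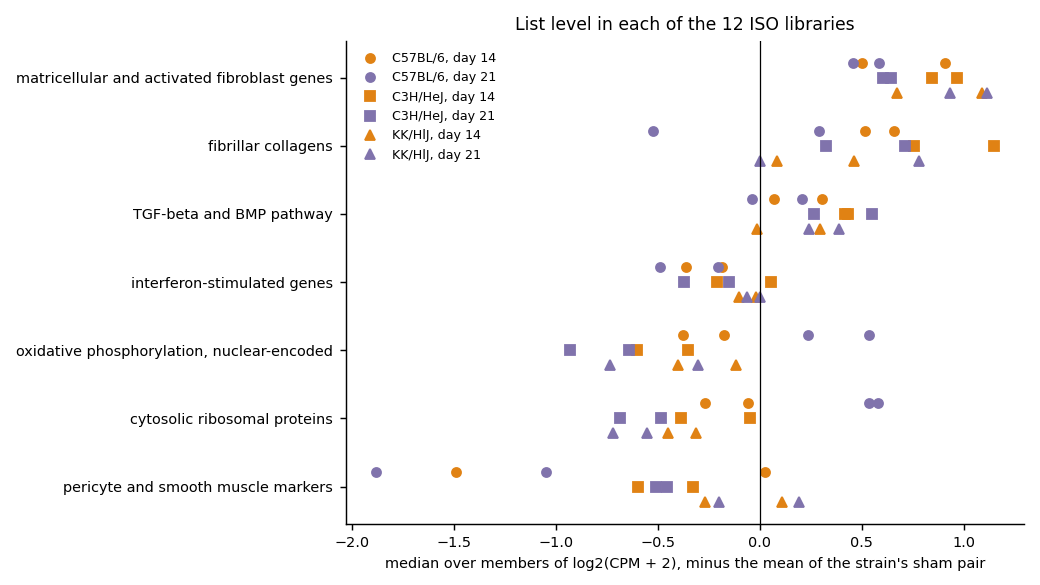
Median over the members of 7 lists of log2(CPM + 2) in each of the 12 ISO libraries, minus the mean of the sham pair of the same strain; shapes are strains and colours are days. The matricellular list is above 0 in 12 of 12 libraries, interferon-stimulated genes in 1 of 12, and oxidative phosphorylation and ribosomal protein genes split by day in C57BL/6.

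Pericyte and smooth muscle genes were nearly all below 0. Of 14 markers of these cells 1 was above 0 and the median was -0.36. With all libraries kept none was called by edgeR, and 4 were lower at an unadjusted p under 0.05. Kcnj8, a potassium channel subunit of pericytes, averaged 368 ± 223 CPM in sham and 187 ± 78.5 CPM in ISO, and Higd1b, a pericyte gene, 51.6 ± 19 and 27 ± 11.4 CPM (edgeR adjusted p of 0.496 and 0.382). Without the 4 divergent libraries edgeR called Kcnj8 on the same genes (log2 fold change -1.30, adjusted p = 0.0228). Limma with quality weights called Kcnj8 (adjusted p = 0.0343) and Vtn, and DESeq2 called Vtn but not Kcnj8. Neither tool called Higd1b or Des, which is also on the list. The summed markers ran from 2257 to 7715 CPM in sham and from 1554 to 6203 CPM in ISO. The list medians by strain were -0.53 in C3H/HeJ, -0.94 in C57BL/6 and -0.002 in KK/HlJ, where the 4 ISO libraries lay on both sides of the sham mean. Without the C57BL/6 libraries the median was -0.08, and without the 4 divergent libraries -0.71.

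Among genes of other lists, Heyl and Itga7 had log2 fold changes below 0, as had Cox4i2, which is on none and was named after its values were seen. Cox4i2, a cytochrome oxidase isoform, averaged 116 ± 27.1 CPM in sham and 54 ± 28.5 CPM in ISO (log2 fold change -1.17), Heyl, a Notch target, had medians of 296 and 164 CPM (-0.77), and Itga7, a laminin-binding integrin chain, averaged 247 ± 109 and 132 ± 50.4 CPM (-0.95). Their edgeR adjusted p were 0.0758, 0.147 and 0.223, and limma with quality weights called all 3. In KK/HlJ, however, Itga7 stood at 0.07. In RNA of sorted cells, fewer cells of a type and less RNA per cell cannot be told apart. The part of pericyte content in the lower genes was not tested beyond the covariate fit, in which 18 genes were called, 15 higher and 3 lower.

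Markers of other cell types were summed in the same way. The 14 macrophage and monocyte markers, untested ones included, summed to 14.5 to 25.8 CPM in sham and 8.69 to 236.8 CPM in ISO. Itgam, a defining marker, was at 0 in every library. Of the 11 tested, 8 were above 0 with a median of 1.29, and 3 reached 5 CPM in a group. The median was 3.29 in C3H/HeJ, 0.93 in KK/HlJ and -0.02 in C57BL/6. With any 1 library left out it ran from 0.78 to 2.23 on the same genes. By library, however, the list's median was above its strain's sham mean in only 6 of 12 ISO libraries. Of 14 endothelial markers the sums were 600.3 to 1133 CPM in sham and 551.4 to 2182 CPM in ISO, with the highest in C3H/HeJ ISO day 21 replicate 1. Without that library the list's median moved from 0.16 to -0.38 on the same genes. Of 12 Schwann cell and glia markers the sums were 116.5 to 150.2 CPM in sham and 64.2 to 163.5 CPM in ISO, and in C3H/HeJ all 4 ISO libraries lay below both sham libraries. Of the 11 tested 3 were above 0, with a median of -0.48 (-0.71 to -0.42 with any 1 library left out), and 1 was lower at an unadjusted p under 0.05. By library the median was above its strain's sham mean in 1 of 12 ISO libraries. It was -0.61 in C3H/HeJ, -0.56 in C57BL/6 and -0.04 in KK/HlJ. Lymphocyte markers summed to 0 to 14.7 CPM, with Cd3d, Cd3g, Cd8a and Trbc1 among those at 0 throughout. The matricellular list's median stayed between 0.98 and 1.11 when any 1 library was left out. The part of these cells in other results was not tested.

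**Figure D4:**
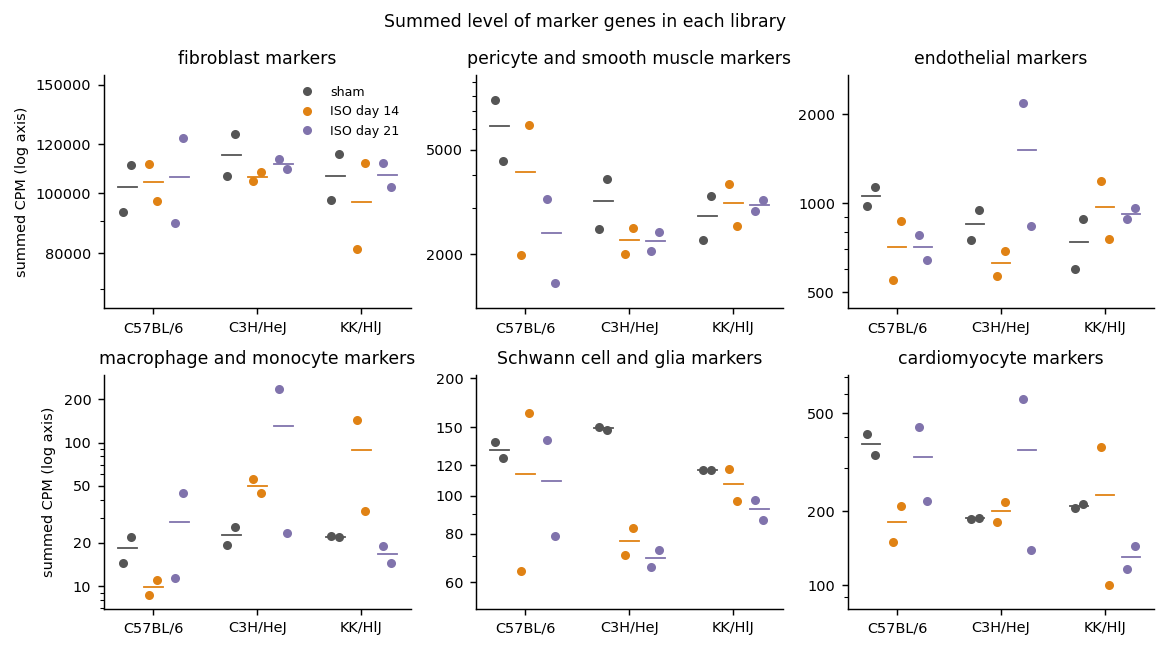
Summed CPM (scaled by total counts) of 6 sets of cell type markers in each library, on log axes, by strain, with sham in grey, ISO day 14 in orange and ISO day 21 in purple; bars are the mean of 2 libraries. Fibroblast markers overlap between groups, pericyte markers are highest in C57BL/6 sham replicate 1, and endothelial and macrophage markers peak in C3H/HeJ ISO day 21 replicate 1.

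Day 14 and day 21 gave similar values for the genes that rose, which the fit over both days that picked them favours. The days share their sham libraries, so only their own values are set side by side. Against sham, 4 genes rose at day 14 (0.0254% of all tested: Postn, Ltbp2, Cilp and Pamr1) and 6 at day 21 (0.0381%: the same 4 with Sfrp2 and Prg4). On the same genes, leaving out the 4 divergent libraries gave 11 at day 14 and 2 at day 21. Day 14 gave 9 without replicate 1 of KK/HlJ sham or of KK/HlJ at day 14, 8 without replicate 1 of C57BL/6 sham and 2 without replicate 1 of C3H/HeJ at day 14. Day 21 gave 3 without either C57BL/6 sham library, replicate 2 of C57BL/6 at day 14, replicate 1 of C3H/HeJ at day 14 or day 21, or replicate 1 of KK/HlJ at day 21. Log2 fold changes at day 14 and day 21 were 2.39 and 1.97 in Postn, 1.65 and 1.65 in Ltbp2, 1.35 and 1.56 in Ccn5, 1.14 and 1.14 in Comp, and -1.03 and -0.86 in Sept4. Day 21 compared directly with day 14 gave no call in edgeR's test, with 427 genes (2.71%) at an unadjusted p under 0.05, while DESeq2 called 102. Postn came closest among the 11, with a difference of -0.42 (SE 0.24; unadjusted p = 0.099 in edgeR). In the model that holds both days, the medians of the matricellular list were 1.14 at day 14 and 1.07 at day 21, and those of fibrillar collagens 0.84 and 0.26. On fewer libraries, with day 14 left out of the fit, the fibrillar median at day 21 was the 0.47 given above.

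The leading genes had the same sign in each strain, which the pooled fit that picked them favours. With all libraries kept, edgeR called few genes within any single strain. No gene passed edgeR's test for an ISO response that differs between strains (0 called, 816 or 5.18% at an unadjusted p under 0.05, 21 called by DESeq2). On the same genes the interaction test called 71 when replicate 2 of C3H/HeJ sham was left out. It called 29 and 6 with replicates 2 and 1 of the KK/HlJ shams left out, 1 with either KK/HlJ library of day 14 left out and 0 for any of the 13 others. With all 4 divergent libraries out it called 24. Within single strains, edgeR called 0 genes in C57BL/6 (385 or 2.44% at an unadjusted p under 0.05; DESeq2 called 9), 3 in C3H/HeJ (0.019%; 1189 or 7.54% unadjusted) and 1 in KK/HlJ (0.00634%; 1246 or 7.91% unadjusted), all higher. With the same genes tested, the number in C3H/HeJ was 252 without its sham replicate 2 and 6 without KK/HlJ sham replicate 1. It was 0 or 1 without any of 11 others: both C57BL/6 sham libraries, both of C57BL/6 at day 14, all 4 KK/HlJ ISO libraries, and from C3H/HeJ itself sham replicate 1, day 14 replicate 2 and day 21 replicate 1. In KK/HlJ it was 266 without its sham replicate 2, 13 without its sham replicate 1, 11 and 2 without replicates 1 and 2 of its day 14, 8 and 4 without replicates 1 and 2 of C3H/HeJ sham, 3 without C57BL/6 day 14 replicate 1 and 2 without C57BL/6 sham replicate 1. It was 0 without replicate 2 of its day 21, replicate 1 of C3H/HeJ at day 14 or replicate 2 of C3H/HeJ at day 21.

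The genes called within 1 strain were Postn, Hsph1 and Timp3 in C3H/HeJ and Uggt2 in KK/HlJ. Hsph1, a heat shock chaperone, was at 9.27 and 14.4 CPM in C3H/HeJ sham and at 126.5, 94.7, 76.7 and 55.9 CPM in its ISO libraries (log2 fold change 2.90, edgeR adjusted p = 0.0467), with -0.25 in C57BL/6 and 1.5 in KK/HlJ, where sham stood at 30.1 and 31.2 CPM and ISO at 58.1 to 124 CPM. Timp3, an inhibitor of metalloproteinases held in the matrix, was at 453.9 and 366 CPM in sham and between 992.4 and 1387 CPM in ISO (1.59, adjusted p = 0.0467), with 0.07 in C57BL/6 and 0.14 in KK/HlJ. These differences between strains did not pass the interaction test. Uggt2, a sensor of glycoprotein folding named after its values were seen, was at 0.0871 and 0.0924 CPM in KK/HlJ sham and between 10.1 and 25.1 CPM in its ISO libraries (adjusted p = 0.0252).

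With all libraries kept, responses across genes in C57BL/6 were nearly unrelated to those of the other strains, each measured against its own sham libraries. C3H/HeJ and KK/HlJ were weakly related, and without the 4 divergent libraries all pairs of strains were. Over 10348 genes of at least 5 CPM, Pearson's r of log2 fold changes was 0.01 between C57BL/6 and C3H/HeJ, -0.06 between C57BL/6 and KK/HlJ and 0.23 between C3H/HeJ and KK/HlJ. Genes are not independent replicates, and the fits share scaling. On differences of log2(CPM + 2), r was 0.017, -0.09 and 0.249 with all libraries and 0.301, 0.151 and 0.315 without the 4 divergent libraries. KK/HlJ, the strain with 3 of those libraries, had the widest spread of log2 fold changes (SD 1.01), against 0.77 for C3H/HeJ and 0.49 for C57BL/6.

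Each strain was also read on genes picked by p and direction in the other strains. Its own libraries took part only in the filters on expression level, which used all libraries. Of 112 genes higher at an unadjusted p under 0.05 in C57BL/6 and KK/HlJ together, 88.4% were above 0 in C3H/HeJ, and of 118 lower genes 15.3% were, against 53.7% of all genes. For KK/HlJ the shares were 62% of 374 higher and 34.7% of 323 lower genes, against 51%. For C57BL/6 they were 51.1% of 573 higher and 62.1% of 634 lower genes, against 50.5%: genes lower in the other strains were more often above 0 than below. At p under 0.001 in the other strains, 29 of 38 higher genes (76.3%) and 10 of 20 lower genes (50%) were above 0 in C57BL/6.

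**Figure D5:**
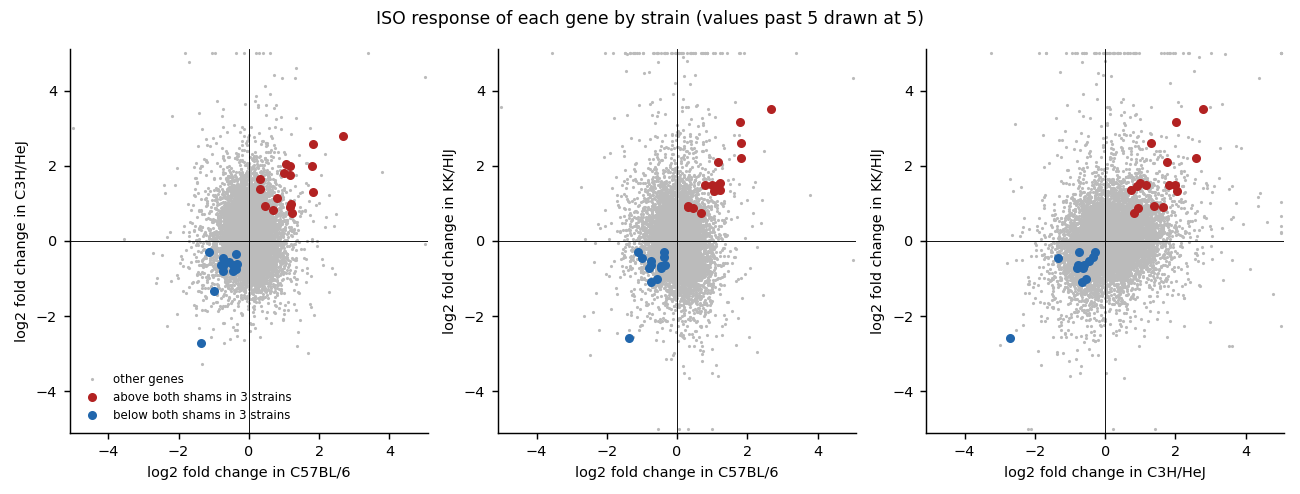
Log2 fold change of ISO minus sham for 10348 genes of at least 5 CPM, each strain against each other strain, with values past 5 drawn at 5. Grey points scatter round 0 with little slope, and the 16 genes above (red) and 13 below (blue) both sham libraries in all strains lie in the upper right and lower left, a position that the way they were chosen fixes.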

How the data were processed

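The deposited values are raw counts of reads per Ensembl gene, whole numbers that the authors did not normalize, with a different total in each library. The mm10 genome, STAR 2.5.3a, FastQC and edgeR are named per the submitters' processing notes. Which program counted reads, with which strand setting and annotation, is not given in the sources used here, so reads of overlapping or antisense genes may be shared. Reads of all strains were mapped to the 1 build, so a strain's variants can lower its counts. GENCODE M21 gave symbols for 53237 of 53342 identifiers.

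Counts were tested with edgeR 4.0.16 (R 4.3.3; TMM scaling, robust quasi-likelihood fit, default filter on the 9 groups) in a model of strain plus ISO, with 14 residual degrees of freedom. Terms for day, for strain by ISO, and fits within strains gave the other comparisons. Genes with a Benjamini-Hochberg adjusted p below 0.05 were called. CPM use edgeR's effective library sizes; marker sums use total counts. Lists are described by counts and medians, with no test. Separation needs all 4 ISO libraries of a strain beyond both sham libraries. The procedure was tested on simulated data.

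The genes, lists and alternatives were chosen with earlier results of these data known. Named genes passed the test with the same sign in 3 strains, at least 5 CPM and no clone name, in all up to 20 higher and 20 lower by fold change beside the 9 of lowest p; up to 5 members of each list in order of p were added, and Postn, Col1a1, Col3a1, Acta2, Pdgfra, Tcf21, Thy1 and Adrb1 were followed whatever they showed. Some items are not reported here. Others are said to be named after their values were seen. Alternatives were DESeq2 1.42.0, limma 3.58.1 with library quality weights, RLE scaling, other filters, a replicate block, other models, subsets of days and strains, and each library left out in turn. A covariate for pericyte markers, separation without the divergent libraries and, since the default filter loosens when a group keeps 1 library, fits with libraries left out on the 15762 genes of the full fit were added after seeing the data. Replicates of every group differed by far more than counting noise (chi-square per degree of freedom from 79.8 to 205.4).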

Additional observations from a re-analysis of the deposited data

Results flagged for a closer look

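Single libraries lay far from the others of their group in 14 of 119 checks of gene levels and marker sums, by the gap to the nearest library as a share of the range; chance gives about 1 in 20. Ltbp2 stood at 120.9 CPM in C3H/HeJ sham replicate 2 against 58.9 to 75.6 CPM in the 5 other sham libraries. Col1a1 was at 2030.0 CPM in C57BL/6 ISO day 21 replicate 1 against 4332 to 4653 CPM in the other ISO libraries of the strain. Acta2 was at 874.1 CPM in KK/HlJ ISO day 14 replicate 1 against 334.2 to 421.2 CPM. Adrb1 was at or near 0 reads in most libraries. It stood at 2.23 CPM in C3H/HeJ sham replicate 2 against 0.191 CPM or less in the other sham libraries. C57BL/6 ISO day 21 replicate 2 held 0.0693 CPM, with the other ISO libraries of the strain at 0.

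The remaining cases are marker sums. C3H/HeJ ISO day 21 replicate 1 had 2182 CPM of endothelial markers (others 568.6 to 839.9), 236.8 CPM of macrophage and monocyte markers (23.3 to 55.7) and 463.1 CPM of adipocyte markers (24.1 to 56.2). KK/HlJ ISO day 14 replicate 1 had 363.9 CPM of cardiomyocyte markers (100.5 to 145), 143.1 CPM of macrophage and monocyte markers (14.4 to 33.2) and 232.5 CPM of erythroid markers (5.16 to 6.29). C57BL/6 ISO day 21 replicate 2 had 44.6 CPM of macrophage and monocyte markers (8.69 to 11.5), KK/HlJ ISO day 14 replicate 2 had 0.965 CPM of lymphocyte markers (5.55 to 6.08), and C57BL/6 sham replicate 2 had 187.5 CPM of adipocyte markers (41 to 73.6). The adipocyte sums came almost wholly from Fabp4 (23.7 to 463 CPM), which is also on the endothelial list. No other adipocyte marker exceeded 1.91 CPM in any library, and Adipoq and Retn were at 0 in all of them.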

How the results depend on the processing

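Against 11 calls for ISO over all strains and days, DESeq2 gave 67 (41 higher, 26 lower), limma with quality weights 41 (20, 21), no filter on low counts 84 (56, 28), offsets for length and GC content 22 (18, 4), the pericyte covariate 18 (15, 3) and leaving out the 4 divergent libraries 24 (13, 11) on the same genes and 26 (14, 12) with the default filter. Day 14 alone gave 4 (4, 0), day 21 alone 1 (1, 0), strains other than C57BL/6 4 (4, 0), other than C3H/HeJ 5 (5, 0) and other than KK/HlJ 1 (1, 0), each with fewer libraries. Leaving out 1 library gave 7 to 16 (higher 7 to 14, lower 0 to 4) on the same genes and with the default filter alike; Postn, Ltbp2, Cilp, Pamr1, Sfrp2 and Prg4 kept their calls in all 18 fits of both kinds. For the other comparisons the ranges on the same genes, with those of the default filter in brackets, were 2 to 9 at day 14 (4 to 18), 3 to 7 at day 21 (4 to 9), 0 to 0 between days (0 to 1), 0 to 71 between strains (0 to 73), 0 to 266 in KK/HlJ (0 to 266), 0 to 0 for C57BL/6 (0 to 0) and 0 to 252 for C3H/HeJ (0 to 244). In the order day 14, day 21, between days, between strains, C57BL/6, C3H/HeJ, KK/HlJ, DESeq2 called 185, 131, 102, 21, 9, 97 and 227 genes, and the test without a filter 64, 45, 7, 56, 10, 63 and 106. Without the 4 divergent libraries the counts on the same genes (default filter) were 11 (25) at day 14 and 2 (15) at day 21. They were 24 (27) between strains, 123 (125) in KK/HlJ, 0 (1) in C57BL/6 and 0 (0) in C3H/HeJ. Genes separated in all strains were then 99 higher and 163 lower. Fewer libraries had to separate, and whether that accounts for these numbers was not tested. A minimum of 5 CPM gave 0 in C3H/HeJ and 2 in KK/HlJ. Correlations of the deviations of same-numbered libraries ran from -0.259 to 0.361, and not all pairs of any strain were over 0.1, so the numbers are not taken as a pairing; with a replicate block within strain the counts were 11 over all strains and days, 3 at day 21, 9 in C3H/HeJ and 0 in KK/HlJ. The log2 fold change of Adrb1 changed sign with 9 group terms (0.23), day 21 alone (0.40), strains other than C57BL/6 (0.13) and among single libraries left out (-1.544 to 1.048), Acta2 with day 14 alone (0.026) and the covariate (0.096), Pdgfra with the offsets (-0.073), and the log2 fold change of Tcf21 without KK/HlJ sham replicate 2 (0.012, 0.013 on the same genes; range over single libraries -0.146 to 0.013); none of these was called, and the cause was not tested. Motif shares against all genes moved by less than their 95% exact binomial interval with the last 100 bases before the start. Depth of at least 7230741 counts leaves genes at or under 3 reads in most libraries, such as Adrb1, without a usable fold.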
